A study of Saccharomyces cerevisiae with 6 samples.

Results

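The mating pheromone response of budding yeast is run by a set of genes that both haploid cell types express and that diploid cells keep off. A total of 10 of these haploid-specific genes were taken by name from the 7032 genes with deposited counts, namely *GPA1*, *STE4*, *STE18*, *STE5*, *FUS3*, *STE12*, *FAR1*, *FUS1*, *AGA1* and *SST2*, and all 10 passed the filter on low counts. Transient transcriptome sequencing (TT-seq), which enriches and sequences the RNA made during a short pulse of 4-thiouracil, had been performed on 3 biological replicates of a wild-type strain and 3 of a *dbp2Δ* strain, to follow what loss of Dbp2, a DEAD-box RNA helicase, does to sense and antisense transcription. By the study's strain list, the wild-type is *MATa* and carries *his3Δ1*, *leu2Δ0*, *met15Δ0* and *ura3Δ0*. The *dbp2Δ* strain is *MATα*, with *DBP2* replaced by *KanR* (*dbp2::KanR*), and carries *ura3Δ0*, *leu2Δ0* and *his3Δ0* together with intact *TRP1*, *MET* and *LYS*. Both carried the empty vector pRS426 and were grown at 30°C in medium lacking uracil with 2% glucose to an OD600 of 0.5, then labelled for 10 min with 0.32 mg/ml 4-thiouracil. Each strain is a single genotype without pheromone treatment, so the mating type, the strain background and the deletion of *DBP2* cannot be told apart in any comparison that follows.

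In haploid cells, pheromone from the other mating type binds a receptor coupled to a G protein of which Gpa1 is the α, Ste4 the β and Ste18 the γ subunit. Freed Ste4 and Ste18 recruit the scaffold Ste5, on which a kinase cascade activates the MAP kinase Fus3. Fus3 acts on the transcription factor Ste12, which binds pheromone response elements, and on Far1, which arrests the cell cycle. In a/α diploids the a1-α2 repressor shuts off haploid-specific genes, which are otherwise open in both haploid cell types, unlike the **a**-specific and α-specific genes that mark one mating type.

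The libraries matched the listed genotypes at *DBP2* and in mating type, and went against the listed wild-type genotype at *LYS2*. *DBP2* had 10976, 11136 and 11213 counts in wild-type and 0, 0 and 2 in *dbp2Δ*, and counts of *HMRA1*, whose sequence the MATa1 gene shares, were 358 to 545 among wild-type libraries and 0 in each *dbp2Δ* library. *MET17*, the gene deleted by *met15Δ0*, was at 0 throughout wild-type and between 1505 and 2030 in *dbp2Δ*. By contrast, *LYS2*, a lysine synthesis gene for which no deletion is listed in the wild-type, had 1, 0 and 1 counts there against 4477, 4710 and 5894 in *dbp2Δ*, so that the wild-type libraries differ from the listed genotype by at least this marker. All 7 **a**-specific genes were called lower and all 4 α-specific genes higher in *dbp2Δ*. None of these **a**-specific and α-specific genes was at 0 in every library of the other mating type. Summed normalized counts of the **a**-specific genes were 34526 to 47885 in wild-type, highest in replicate 3, and 890 to 958 in *dbp2Δ*, and those of the α-specific genes were 345 to 613 in wild-type, highest in replicate 3, and 27488 to 30935 in *dbp2Δ*. Gene counts per library summed to 11177517 to 13134963 in wild-type and 6968216 to 8659542 in *dbp2Δ*. The biological coefficient of variation was 26.5% among wild-type and 9.66% among *dbp2Δ* libraries. Since these are bulk cultures, fewer cells expressing a gene and less RNA per cell cannot be told apart.

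The sequence words by which the pathway and the diploid repressor act were looked up upstream of each gene, because they are what the 10 genes share or lack on the DNA. The core of the pheromone response element, TGAAACA, was searched on both strands of the 500 bases before each start codon in the R64 genome. It was present before 7 of the 10 genes and before 12.0% of 6000 promoters. Within 250 bases it was present before 5 of the 10 (*FUS1*, *FUS3*, *STE18*, *SST2* and *AGA1*) and before 6.07% of 6001 promoters. The matches within 250 bases are printed 5′ to 3′ on the strand that holds the word, with the word in capitals and 5 bases of either flank. They lie at III:71611-71627 and III:71638-71654 (*FUS1*), II:192290-192306 (*FUS3*), X:585946-585962 (*STE18*, minus strand), XII:1041600-1041616 (*SST2*, minus strand) and XIV:703492-703508 (*AGA1*), none of them inside an annotated gene.
FUS1 upstream match 1: gatgaTGAAACAaacat
FUS1 upstream match 2: taattTGAAACAaataa
FUS3: ggcatTGAAACAattgc
STE18: gagccTGAAACAaaaat
SST2: aatttTGAAACAatgat
AGA1: ttttcTGAAACAatatt

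*FUS1* was the only one of these with 2 copies this close, 187 and 160 bases before its start codon and both on the strand of the gene. *STE4* and *STE12* held the word only farther out, at 318 bases or more and at 393 bases or more. *GPA1*, *STE5* and *FAR1* held none in 500 bases, which says only that these letters are not in this window.

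The operator of the a1-α2 repressor was searched as TGTNNNNNNNTACATCA on both strands, allowing 1 mismatch in its 10 fixed letters. It matched before 4 of the 10 genes (*GPA1*, *STE18*, *STE5* and *FUS3*) and before 4.78% of 6000 promoters. The windows and the mismatch allowance were chosen after other settings had been seen, and without a mismatch no match was found before any of the 10 genes and before 0.333% of promoters. The matches are printed with the fixed letters that match in capitals and 2 bases of either flank. They lie at VIII:115254-115274 (*GPA1*, minus strand), X:585969-585989 (*STE18*, minus strand), IV:658144-658164 and IV:658161-658181 (*STE5*) and II:192144-192164 (*FUS3*, minus strand), outside annotated genes.
GPA1: caTGTtaaaaagcACATCAat
STE18: ctTGTtaaatatTgCATCAaa
STE5 upstream match 1: ctTGTtaatttacACATCAtg
STE5 upstream match 2: caTGTacttttcTgCATCAaa
FUS3: atTGcttgtaggTACATCAca

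The 2 *STE5* matches lie next to each other, 204 and 187 bases before the start codon. *STE18* and *FUS3* held both words, at places that do not overlap.

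All 10 genes were transcribed in both strains, and none differed as the mating-type genes did. Of the 10, *STE5* was called higher in *dbp2Δ*, *STE4* and *FUS3* were called lower, and 7 were not called, at an adjusted p under 0.05 (edgeR, quasi-likelihood test, Benjamini-Hochberg over 5943 genes). The 3 calls are 30% of the 10, against 42.0% of all genes tested, of which 19.6% were called higher and 22.4% lower. The largest of the 10 changes was 0.57 on the log2 scale (*FUS3*), a size that 35.4% of all genes tested exceeded. The median log2 fold change of the 10 was 0.15 against -0.02 for all genes, and the median absolute change was 0.40 against 0.41. In 5 of the 10 the libraries of both strains did not overlap (*GPA1*, *STE5* and *STE12* higher in *dbp2Δ*, *STE4* and *FUS3* lower), against 55.6% of all genes. Each of the 10 is annotated with 1 coding exon and no overlapping gene, and positions are those of the R64 build. Fold changes are *dbp2Δ* over wild-type throughout, and normalized counts are counts scaled by the effective size of each library to the mean effective size.

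**Figure D1:**
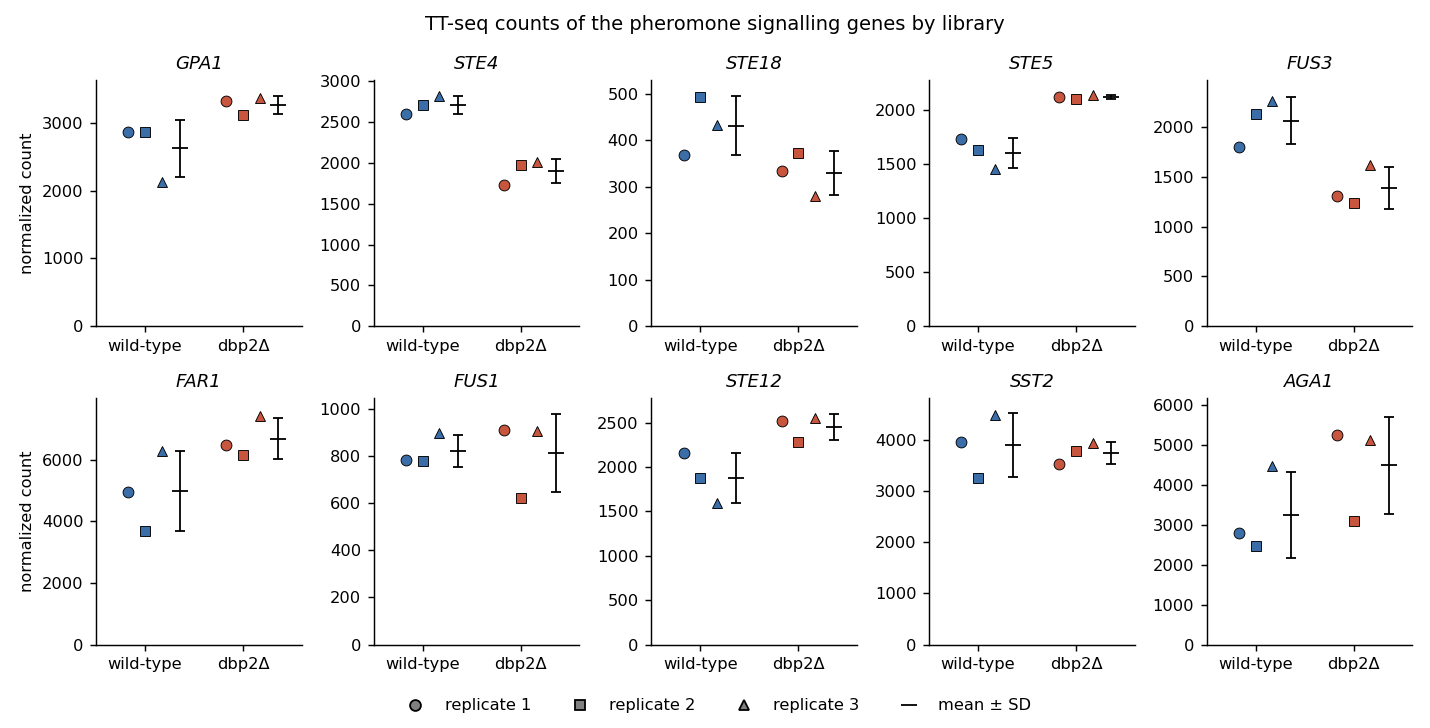
Normalized TT-seq counts (y axis, from 0) of the 10 pheromone signalling genes in each wild-type (blue) and *dbp2Δ* (red) library, with symbols for the replicate numbers and bars for the mean ± SD of 3 libraries. The strains do not overlap for *GPA1*, *STE4*, *STE5*, *FUS3* and *STE12*. Wild-type replicate 3 is the highest wild-type library for *STE4*, *FUS3*, *FUS1*, *SST2*, *FAR1* (6301) and *AGA1* (4489). It is the lowest for *GPA1*, *STE5* and *STE12*.

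Per kilobase of coding sequence, the levels of the 10 genes spanned from 533 (*FUS1*) to 2131 (*STE4*) normalized counts in wild-type. In wild-type, *STE4* was followed by *FAR1*, *FUS3*, *SST2*, *GPA1*, *AGA1*, *STE18*, *STE12*, *STE5* and *FUS1*. Among these neighbours only *STE18* and *STE12* (1297 and 908 per kilobase) and *STE12* and *STE5* (908 and 583) had libraries that did not overlap. In *dbp2Δ* the order ran from *FAR1* (2683) through *GPA1*, *AGA1*, *SST2*, *STE4*, *FUS3*, *STE12*, *STE18* and *STE5* to *FUS1* (528). The libraries did not overlap there between *FAR1* and *GPA1* (2683 and 2307), *SST2* and *STE4* (1787 and 1498), *STE18* and *STE5* (990 and 772), and *STE5* and *FUS1* (772 and 528). *STE4*, the highest of the 10 in wild-type, stood below 4 of the others in *dbp2Δ*, and *FUS1* was the lowest in both strains. Even *FUS1*, a gene best known for its induction by pheromone, stood above 42.3% of protein-coding genes in wild-type and above 42.8% in *dbp2Δ* per kilobase. These shares are of the protein-coding genes that passed the filter on low counts.

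Of the 3 subunits of the G protein, *STE4* was called lower and *GPA1* and *STE18* were not called. *GPA1* (YHR005C, VIII:113499-114917, minus strand), whose α subunit holds the pathway off in the absence of pheromone, had normalized counts of 2877, 2870 and 2134 in wild-type and 3326, 3122 and 3374 in *dbp2Δ*. Every *dbp2Δ* library was above every wild-type library. The log2 fold change of *GPA1* was 0.32 (SE 0.15, 95% interval -0.03 to 0.66), with an adjusted p of 0.12 in edgeR, and was not called.

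*STE4* (YOR212W, XV:742910-744181, plus strand), the β subunit that carries the signal on when freed, had 2600, 2707 and 2823 in wild-type and 1735, 1976 and 2007 in *dbp2Δ*, again without overlap but in the other direction. It was called lower, with a log2 fold change of -0.51 (SE 0.12, 95% interval -0.78 to -0.24) and an adjusted p of 0.012 in edgeR. The call was lost without *dbp2Δ* replicate 1 (adjusted p = 0.060 in edgeR) or *dbp2Δ* replicate 2 (0.051). *STE18* (YJR086W, X:586068-586400, plus strand), the γ subunit and the shortest of the 10 genes at 333 bp, had 368, 494 and 433 in wild-type and 335, 374 and 280 in *dbp2Δ*. The strains overlapped, since *dbp2Δ* replicate 2 was above wild-type replicate 1. Its log2 fold change of -0.39 (SE 0.16) had an adjusted p of 0.088 in edgeR. It passed the threshold without wild-type replicate 1 (-0.49, adjusted p = 0.042 in edgeR).

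A ratio taken within a library does not depend on how libraries are scaled. The ratio of *GPA1* to *STE4* counts per kilobase was 0.992, 0.951 and 0.677 in wild-type and 1.72, 1.42 and 1.51 in *dbp2Δ*. *GPA1* was thus near parity with *STE4* in wild-type replicates 1 and 2 and below it in wild-type replicate 3. It was above *STE4* in every *dbp2Δ* library. The strain means of the log2 ratio differed by 0.84, a 1.79-fold higher ratio in *dbp2Δ*. The two-sided exact permutation p was 0.1, the smallest that 3 libraries against 3 allow and also the value adjusted over the 2 ratios tested. Every *dbp2Δ* library was higher for *GPA1* and lower for *STE4* than every wild-type library, so this p was fixed by those counts. It adds nothing to them. With 1 library left out the difference stayed between 0.67 and 0.94 on the log2 scale.

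The scaffold and the kinase it carries were both called, in opposite directions. *STE5* (YDR103W, IV:658350-661103, plus strand), which assembles the kinases of the cascade, had 1733, 1633 and 1455 normalized counts in wild-type and 2126, 2108 and 2141 in *dbp2Δ*. The *dbp2Δ* libraries lay close together and above all wild-type libraries. *STE5* was called higher, with a log2 fold change of 0.40 (SE 0.11, 95% interval 0.14 to 0.67) and an adjusted p of 0.025 in edgeR. The call was lost without wild-type replicate 2 (adjusted p = 0.054 in edgeR) and without *dbp2Δ* replicate 1, 2 or 3 (0.076, 0.081 and 0.081). It was also lost with the replicate number as a block, at a log2 fold change of 0.41 (adjusted p = 0.078 in edgeR).

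*FUS3* (YBL016W, II:192451-193512, plus strand), the MAP kinase of the mating response, had 1808, 2135 and 2268 in wild-type and 1310, 1235 and 1626 in *dbp2Δ*. The highest *dbp2Δ* library was below the lowest wild-type library. *FUS3* was called lower, with a log2 fold change of -0.57 (SE 0.15, 95% interval -0.92 to -0.23) and an adjusted p of 0.019 in edgeR. The call was lost without wild-type replicate 2 (adjusted p = 0.051 in edgeR) and without *dbp2Δ* replicate 1 (0.077) or 2 (0.082).

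*KSS1* encodes the MAP kinase closest to Fus3, which is expressed in all cell types and also serves filamentous growth. It had 1051, 1172 and 872 normalized counts in wild-type and 1338, 1521 and 1630 in *dbp2Δ*, without overlap, and was called higher (log2 fold change 0.54, adjusted p = 0.019 in edgeR). That call was lost without *dbp2Δ* replicate 2 or 3 (highest adjusted p = 0.077 in edgeR). The ratio of *FUS3* to *KSS1* per kilobase was 1.79, 1.90 and 2.71 in wild-type and 1.02, 0.846 and 1.04 in *dbp2Δ*. *FUS3* had the higher count per kilobase in every wild-type library, while both kinase genes were near parity in *dbp2Δ*. The log2 ratio differed by -1.12 between the strains, so that the ratio in *dbp2Δ* was 0.460 times that in wild-type. This difference lay between -1.23 and -0.94 with 1 library left out. The two-sided exact permutation p was 0.1, the smallest possible. It was fixed by the counts of *FUS3* and *KSS1*, which did not overlap between the strains and went in opposite directions.

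**Figure D2:**
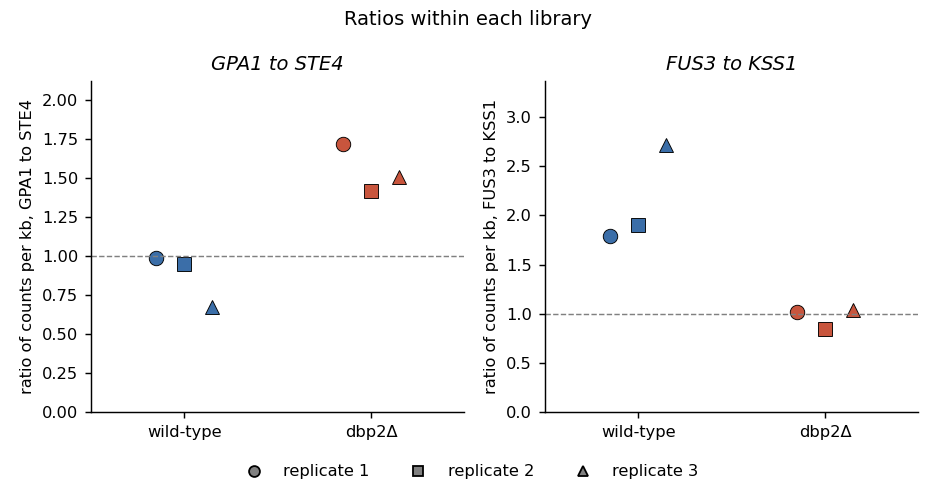
Ratio of *GPA1* to *STE4* (left) and of *FUS3* to *KSS1* (right) in normalized counts per kilobase of coding sequence (y axes, from 0) in each library, with a dashed line at 1. The *GPA1* to *STE4* ratio is at most 0.992 in wild-type and at least 1.42 in *dbp2Δ*, and the *FUS3* to *KSS1* ratio is at least 1.79 in wild-type and at most 1.04 in *dbp2Δ*.

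*STE12* (YHR084W, VIII:274174-276240, plus strand), the transcription factor at the end of the cascade, had 2157, 1873 and 1597 normalized counts in wild-type and 2513, 2284 and 2550 in *dbp2Δ*. The strains did not overlap. Its log2 fold change of 0.38 (SE 0.14, 95% interval 0.05 to 0.71) had an adjusted p of 0.061 in edgeR, and it passed the threshold in 5 of 14 alternative settings, with an adjusted p of 0.023 in edgeR without wild-type replicate 1.

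*FAR1* (YJL157C, X:123836-126328, minus strand), an inhibitor of the cyclin-dependent kinase that also orients growth toward a mate, had 4949, 3688 and 6301 in wild-type and 6468, 6164 and 7431 in *dbp2Δ*. Wild-type replicate 3 exceeded *dbp2Δ* replicate 2, so that the strains overlapped. The log2 fold change was 0.43 (SE 0.21, 95% interval -0.05 to 0.91, adjusted p = 0.13 in edgeR). Without wild-type replicate 3 *FAR1* was called higher (0.63, adjusted p = 0.0096 in edgeR). Without wild-type replicate 2 the change of *FAR1* was 0.24 and not called (adjusted p = 0.35 in edgeR). *AGA1* (YNR044W, XIV:703699-705876, plus strand), which anchors the agglutinin of **a** cells in the cell wall, showed the widest spread of the 10, with 2807, 2468 and 4489 in wild-type and 5253, 3090 and 5133 in *dbp2Δ*. Each strain had 1 library apart from its other 2, high in wild-type replicate 3 and low in *dbp2Δ* replicate 2. The log2 fold change was 0.46 (SE 0.28, 95% interval -0.19 to 1.12, adjusted p = 0.22 in edgeR). It was 0.77 without wild-type replicate 3 (adjusted p = 0.020 in edgeR) and 0.29 without wild-type replicate 2 (adjusted p = 0.49 in edgeR).

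*FUS1* (YCL027W, III:71803-73341, plus strand), a membrane protein of cell fusion whose promoter is a common reporter of the pathway, had 784, 779 and 898 normalized counts in wild-type and 911, 623 and 906 in *dbp2Δ*. The *dbp2Δ* libraries spanned the whole range of the wild-type libraries. The log2 fold change was -0.01 (SE 0.16), and its 95% interval of -0.39 to 0.36 leaves room for folds between 0.763 and 1.29. The sign of this change differed in 4 of 14 alternative settings. *SST2* (YLR452C, XII:1039270-1041366, minus strand), which speeds the return of Gpa1 to its inactive form, had 3964, 3254 and 4490 in wild-type and 3521, 3789 and 3932 in *dbp2Δ*. All *dbp2Δ* libraries lay within the wild-type range. Its log2 fold change of -0.06 (SE 0.15, 95% interval -0.41 to 0.29) changed sign in 3 of 14 settings.

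**Figure D3:**
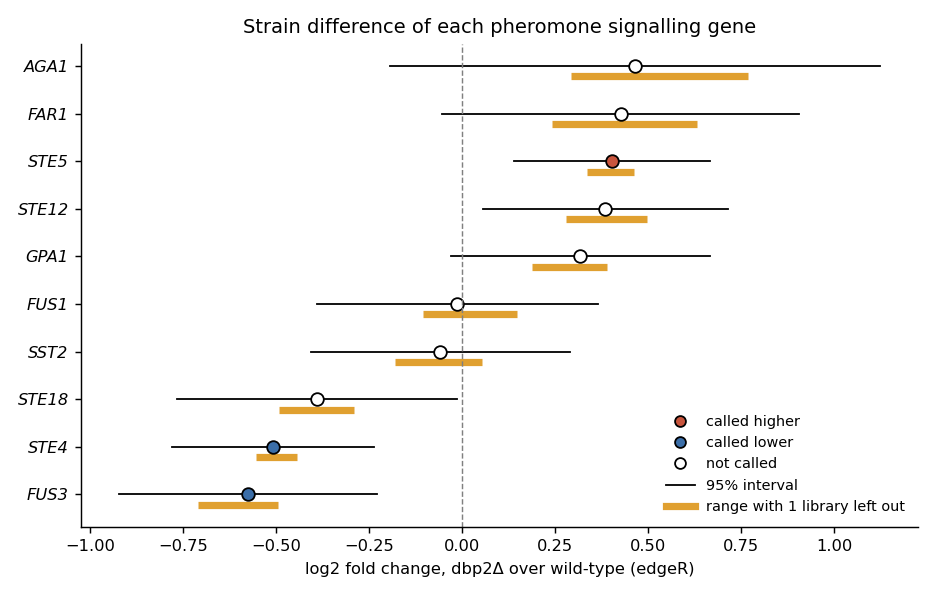
Log2 fold change (x axis, *dbp2Δ* over wild-type, edgeR) of each of the 10 genes with its 95% interval (black line) and the range of values with 1 library left out (orange bar). *STE5* (red) at 0.40 and *STE4* and *FUS3* (blue) at -0.51 and -0.57 were called, and the intervals of *FUS1* and *SST2* are centred near 0.

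The libraries of one strain were also compared with each other. The median coefficient of variation of the 10 genes was 14.8% in wild-type and 8.85% in *dbp2Δ*. Over the 5363 genes that averaged 50 or more normalized counts in each strain it was 14.1% and 7.65%. Against the mean of the other wild-type libraries, wild-type replicate 3 was higher by 0.77 on the log2 scale for *AGA1* and 0.55 for *FAR1*, and stood at -0.43 for *GPA1* and -0.34 for *STE12*. Only *AGA1* lay outside the 10th to 90th percentile of all genes in that library, -0.46 to 0.62. Of 14 pheromone-induced and cell fusion genes, 4 were above and 3 below that range in wild-type replicate 3. *MFA1*, the **a**-factor gene, and *AGA2*, the binding subunit of the **a** agglutinin, were each higher in the same library by 1.38. The other **a**-specific genes stood at 2.00 (*ASG7*), 0.72 (*MFA2*), 0.31 (*BAR1*), 0.30 (*STE2*) and 0.11 (*STE6*). *MFA1*, *AGA2*, *ASG7* and *MFA2* averaged under 50 in *dbp2Δ* and are not among the 5363 genes. Wild-type replicate 3 was also the highest wild-type library in the summed **a**-specific and α-specific genes. The part of these genes in the *FAR1* and *AGA1* values of that library was not tested. In wild-type replicate 2, *FAR1* at -0.61 and *AGA1* at -0.56 were below the 10th percentile of -0.38. In *dbp2Δ* replicate 1, *AGA1* at 0.35 and *FUS1* at 0.25 were above the 90th percentile of 0.24. In *dbp2Δ* replicate 2, *AGA1* stood at -0.75, *FUS1* at -0.54 and *FUS3* at -0.25 against the other *dbp2Δ* libraries, all below the 10th percentile of -0.23, and *STE18* at 0.28 was above the 90th of 0.20. In *dbp2Δ* replicate 3, 4 of the 10 genes (*FUS3*, *AGA1*, *FUS1* and *FAR1*, at 0.35, 0.30, 0.24 and 0.23) were above the 90th percentile of 0.20 and *STE18* at -0.34 was below the 10th of -0.25.

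**Figure D4:**
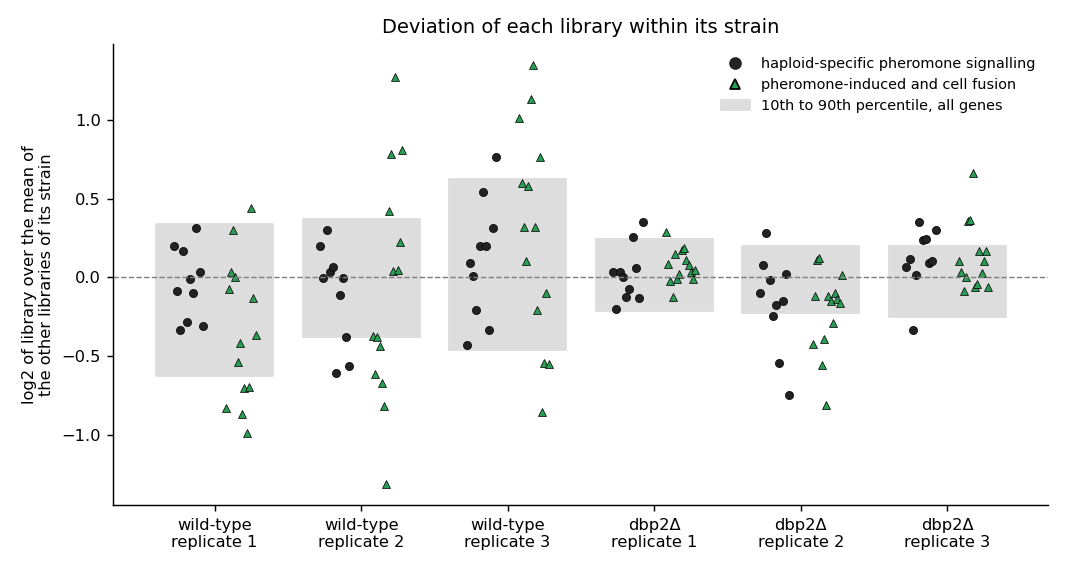
Log2 ratio (y axis) of each library to the mean of the other libraries of its strain, for the 10 pheromone signalling genes (black circles) and for the 14 pheromone-induced and cell fusion genes that averaged 50 or more normalized counts (green triangles), with the 10th to 90th percentile of 5363 genes in grey. The grey range is wider in wild-type, and *AGA1* is the highest circle in wild-type replicate 3 (0.77) and the lowest in *dbp2Δ* replicate 2 (-0.75).

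The genes around the 10 were read by the same fit. Of 15 components of the pathway that all cell types express, 4 were called higher and 1 lower, 33.3% against 42.0% of all genes, with a median log2 fold change of 0.02. Those called higher were *PTP3* (1.01, adjusted p = 0.011 in edgeR) and *MSG5* (0.54, adjusted p = 0.0054 in edgeR), phosphatases that inactivate Fus3, *TEC1* (0.76, adjusted p = 0.0028 in edgeR), the partner of Ste12 at filamentation genes, and *KSS1*. *PTP3*, *MSG5* and *TEC1* were called in all 14 alternative settings. *PTP3* had 2032, 1590 and 1050 normalized counts in wild-type and 3193, 3133 and 3078 in *dbp2Δ*. *MSG5* had 724, 717 and 788 in wild-type and 1055, 1032 and 1162 in *dbp2Δ*. Neither phosphatase gene overlapped between the strains. *AKR1*, a palmitoyl transferase that acts on the pathway, was the component called lower (-0.49, adjusted p = 0.019 in edgeR), which 4 of 14 settings did not call, and it is named here after its value was seen. The upstream kinase genes *STE20*, *STE11* and *STE7* were not called, at 0.14, 0.19 and -0.17, and were chosen as the remaining kinases of the cascade.

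Among 18 genes induced by pheromone or acting in cell fusion, 5 were called higher and 2 lower (38.9% against 42.0%), with a median log2 fold change of 0.13. *PRM10*, a membrane protein gene, changed most, with 152, 353 and 139 normalized counts in wild-type and 2024, 1864 and 1979 in *dbp2Δ* (log2 fold change 3.19, adjusted p = 0.0010 in edgeR). *SCW10*, a cell wall protein gene, had 6948, 8192 and 7050 in wild-type and 13173, 12272 and 14315 in *dbp2Δ* (0.84, adjusted p = 0.0044 in edgeR). Both were called in all 14 settings, without overlap between the strains. *FIG1*, a membrane protein gene strongly induced by pheromone, was called lower, with 26.9, 25.8 and 109 in wild-type and 6.79, 18.0 and 14.8 in *dbp2Δ* (-2.02, adjusted p = 0.048 in edgeR). Its wild-type mean rested on replicate 3, without which the change was -0.98 and not called. *LSB1* was also called lower (-0.81, adjusted p = 0.025 in edgeR), a call that was lost when any of the *dbp2Δ* libraries was left out. The other 3 called genes were higher by 0.59 to 0.73, and are named after their values were seen. *CIK1* was called in all 14 settings and *KAR5* in 12. *FIG2* was called in 10 of 14, and its libraries overlapped between the strains. TGAAACA was present in the 500 bases before 12 of these 18 genes.

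Of 5 other haploid-specific genes, 2 were called lower and 3 were not called (40% called, against 42.0% of all genes). *HO*, the mating-type switching endonuclease gene, had 2027, 1354 and 2166 normalized counts in wild-type and 254, 343 and 317 in *dbp2Δ*. This change, -2.60 on the log2 scale (SE 0.21, adjusted p = 0.00032 in edgeR), was larger in size than that of any of the 10 pheromone signalling genes and was called in all 14 settings. *RME1*, which holds haploid cells out of meiosis, was lower by 0.89 (adjusted p = 0.038 in edgeR), with wild-type replicate 3 the highest at 2352, and was not called in 5 of 14 settings. *AXL1*, *NEJ1* and *RDH54*, the remaining members, had log2 fold changes of -0.30, 0.35 and 0.22.

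**Figure D5:**
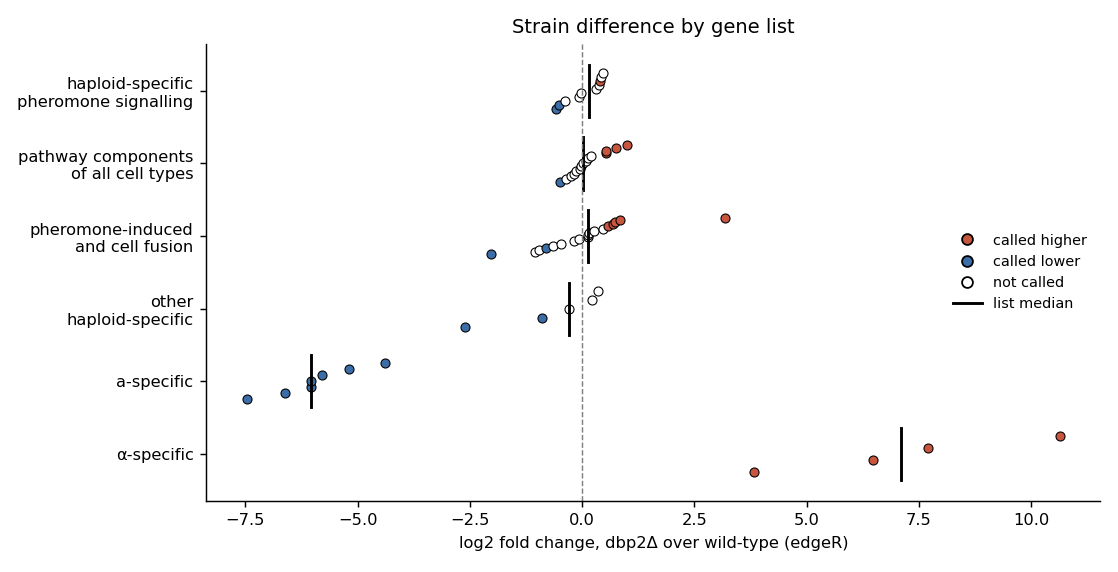
Log2 fold change (x axis, *dbp2Δ* over wild-type, edgeR) of each gene in 6 lists, red where called higher, blue where called lower and white where not called, with the list median as a black line. The 10 haploid-specific pheromone signalling genes lie between -0.57 and 0.46, while the **a**-specific genes lie between -7.47 and -4.39 and the α-specific genes between 3.84 and 10.64.

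Antisense transcripts were listed opposite 3 of the 10 genes. An 811 bp transcript lies wholly within *FUS1* (III:71878-72688, minus strand), a 2685 bp transcript spans *FAR1* (X:123793-126477, plus strand, with a near copy of 2665 bp), and a 617 bp transcript covers the end of *AGA1* (XIV:705326-705942, minus strand). The *FUS1* antisense transcript had 505, 518 and 671 counts in wild-type and 352, 272 and 456 in *dbp2Δ*. The *AGA1* antisense transcript had 1056, 899 and 2052 counts in wild-type and 1126, 779 and 1347 in *dbp2Δ*. Wild-type replicate 3 was high and *dbp2Δ* replicate 2 low for this *AGA1* transcript. Of the 4 transcripts, 0 were called in edgeR, 0 had an unadjusted p under 0.05 there, and DESeq2 called 0, with 2 at an unadjusted p under 0.05, against 42.2% of 2167 antisense transcripts called in edgeR. Log2 fold changes were -0.06 (*FUS1*), 0.45 (*FAR1*, both copies) and 0.31 (*AGA1*). Without wild-type replicate 3, the near-copy *FAR1* transcripts (0.63, adjusted p = 0.014 in edgeR) and the *AGA1* transcript (0.68, adjusted p = 0.019 in edgeR) were called higher. Their sense genes were called higher too, but reads of both sides cannot be told apart. Leaving out that library also raised the calls over all genes, to 1506 higher and 1576 lower from 1166 and 1331.

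Per kilobase, the antisense transcripts had 0.955 to 1.25 times the count of their sense gene in every library. For *FAR1* the count on the antisense side was 1.03 to 1.10 times that of the gene itself. The libraries were made with a directional kit (NEBNext Ultra II Directional), but how strand was treated in the read counting was not found in the sources used, and reads from these genes and from their antisense partners cannot be told apart, and the antisense values are no separate measurement of *FUS1*, *FAR1* or *AGA1*.

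Over the 6 libraries, the genes whose scaled log2 counts followed *FUS1* most closely among 5483 candidates were *RMD8* (Pearson r = 0.97), *SML1* (0.94), *RPB9* (0.93), *DIA4* (0.83) and *TPC1* (0.82). None of the 10 pheromone signalling genes was among these 5. The values are a description over 6 libraries of 2 strains, and these genes were picked as the highest among 5483 candidates. Each of the first 3 genes moved over a narrower relative range than *FUS1*. *RMD8* ran from 873 to 1009 normalized counts against 623 to 911 for *FUS1*.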

How the data were processed

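TT-seq libraries from 3 wild-type and 3 *dbp2Δ* cultures were analysed. The authors deposited raw counts per library for 7032 genes and for antisense non-coding transcripts. The submitters' notes name featureCounts, edgeR and build R64 without versions. For the aligner and the strand setting: not given in the sources used here. Symbols, coordinates and upstream sequence came from the RefSeq R64 annotation, in which 5953 genes were found.

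Tests ran on the counts in edgeR 4.0.16 under R 4.3.3 (TMM, filterByExpr, glmQLFit, glmQLFTest, strain as the only factor), with Benjamini-Hochberg adjustment over all 5943 genes tested. Antisense counts were scaled by the gene libraries. Tried besides were the exact test of edgeR, DESeq2 1.42.0, limma-voom (limma 3.58.1) with quality weights, other scalings, no filter, a replicate block and each library left out. Ratios within libraries were compared by exact permutation. Named genes are the 10, up to 4 called genes of each list with the largest change, *KSS1*, the marker genes and the 5 genes most like *FUS1*; those outside this rule are named as such, and the remaining kinases and list members were added after their values were seen. The members and lists were chosen with earlier results of these data known. Scripts were tested on simulated data.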

Additional observations from a re-analysis of the deposited data

How the results depend on the processing

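Of the 10 genes, *GPA1*, *FUS1* and *SST2* stayed uncalled under all 14 alternatives, and the other 7 crossed the threshold in at least 1. DESeq2, scaling by library size only and upper quartile scaling each called 2 genes higher and 2 lower, and limma-voom with quality weights called 3 higher and 3 lower. Over all genes limma-voom also made more calls, 1598 higher and 1660 lower, as did DESeq2 with 1250 and 1338. Scaling by library size only called 1305 genes higher and 1074 lower over all genes, and upper quartile scaling 1347 and 1146. Both thus called more genes higher and fewer lower than the main fit. With 1 library left out, 0 to 3 of the 10 were called higher and 0 to 3 lower, while counts over all genes ranged from 656 to 1506 higher and from 774 to 1576 lower, against 1166 and 1331 with all libraries. Leaving out 1 library gave 3 to 4 higher and 0 to 2 lower among the pathway components of all cell types, 3 to 7 higher and 0 to 3 lower among the pheromone-induced and cell fusion genes, and 0 to 1 higher and 1 to 3 lower among the other haploid-specific genes. For the antisense transcripts it gave 0 to 3 calls, the 3 without wild-type replicate 3. These 3 include both near copies opposite *FAR1*. Calls over all genes were also most without that library, at 1506 higher and 1576 lower. The share of all antisense transcripts called there is not given here. Limma-voom called 2 pathway components lower and 1 other haploid-specific gene higher, and upper quartile scaling left 1 pheromone-induced gene and 1 other haploid-specific gene lower. Scaling by library size only or by upper quartile moved the median of all genes by 0.08 and 0.06 on the log2 scale.

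Same-numbered libraries did not deviate together (r of -0.08, -0.13 and 0.003). The numbers thus gave no sign of pairing, though such values cannot tell how the cultures were handled. With the replicate block, 0 of the 10 genes were called higher (*STE5* lost its call), 2 were called lower, and 0 pathway components were called lower. The block gave 940 genes higher and 1057 lower. The ratios of *GPA1* to *STE4* and of *FUS3* to *KSS1* had an exact sign-flip p of 0.25, the smallest for 3 pairs. That p was likewise fixed by the counts of the single genes. Raw counts of the 10 genes ran from 247 to 8131 per library, lowest for *STE18*, and 3 libraries per strain limit what the tests can call.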
